A study of Homo sapiens with 20 samples.

Results

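The cell-free culture supernatant of Bifidobacterium animalis subsp. lactis 420 (B. lactis 420), left on differentiated Caco-2 cells for 24 h, is set here against medium alone left on the same line for 8 h. Of the 20 arrays of the series, 4 were chosen by their titles, 2 labelled as B. lactis 420 supernatant and 2 as medium-only control at 8 h. Caco-2 is a single human colon carcinoma line whose cells come to resemble small intestinal enterocytes when they differentiate. All cells were at passages 47 to 51 and had differentiated for 5 days on culture inserts. The bacteria were grown without oxygen in MRS broth with added glucose, and their spent broth, freed of cells and sterile filtered, made up 10% of the volume of the apical medium. The 8 h control received differentiation medium only. Both groups were labelled from 5 µg of total RNA in the probiotic set of 14 arrays, which also holds 2 arrays each of Lactobacillus acidophilus NCFM and Lactobacillus salivarius Ls-33 supernatant at 24 h and 2 arrays of each strain as live cells at 8 h. A separate set of 6 arrays, labelled from 1 µg, holds 3 arrays of medium only at 24 h. Treatment time therefore differs between the groups compared, and no group received uninoculated broth, so time, broth and bacterial products cannot be told apart in the difference from 8 h medium. The series states that the probiotic samples were analysed in duplicate. Whether the 2 arrays of a group came from separate cultures is not given in the sources used here. The p-values therefore measure only the spread between arrays within groups, pooled over all groups of the fit and partly across genes. That spread may be technical.

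Bifidobacteria ferment sugars mainly to acetate and lactate, and their spent medium holds these acids beside what the strain left of the broth. Enterocytes meet such luminal products with receptors and stress pathways that act through transcription. Among them are the aryl hydrocarbon receptor, which binds aromatic compounds and switches on CYP1 genes, and NRF2, which induces glutathione and detoxification genes under oxidative or electrophilic stress. AP-1, a dimer of JUN and FOS family proteins, follows growth factor and stress signalling and drives matrix proteases.

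The deposited values were log2 probe-set signals. The 2 arrays of a group correlated at r = 0.996 in both groups across 54675 probe sets, a description only, since probe sets are not replicates. On the beta-actin control, the 3' minus the 5' signal, a sign of RNA integrity and labelling, was 1.06 and 1.10 with supernatant, against 0.88 and 0.80 in 8 h medium, and for GAPDH it was 0.011 and 0.0096 with supernatant, against 0.020 and -0.035 in medium. The actin difference was thus higher in both supernatant arrays, and its part in the results was not tested. Of 16 enterocyte and Caco-2 markers with a probe set, VIL1, a brush border bundling protein, read 12.41 and 12.45 with supernatant, against 12.45 and 12.45 in 8 h medium, and the sum over the 16 on the linear scale was 61150 to 61960 with supernatant and 58410 to 60570 in medium. Of 16 fibroblast, leukocyte, blood and endothelial markers with a probe set, 6 had means under the floor of 2.74 used to filter genes in both groups, among them the leukocyte marker PTPRC and the fibroblast markers DCN and COL1A2. The sum over these 16 was 6302 to 6553 with supernatant and 5571 to 5877 in medium, and the fibroblast markers LUM (11.49 and 11.54 with supernatant, against 11.11 and 11.08 in 8 h medium) and COL1A1 (11.06 and 11.19 with supernatant, against 11.14 and 10.99 in 8 h medium) carried most of it. LUM was called higher, while PDGFRA and VIM, of mesenchymal cells, were called lower, by 0.62 and 0.34, though the count of 2 lower was 0 without either medium array or without the second supernatant array. Another probe set of LUM gave 0.336 and another of PDGFRA -0.264, neither passing (limma adjusted p = 0.279 and 0.378). The part of these markers in the results was not tested.

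limma called 1802 of 11865 genes tested at an adjusted p under 0.05, 15.2% of them, with 710 higher (5.98%) and 1092 lower (9.2%) with supernatant than in 8 h medium. Changes were small: 18 of the called genes were higher and 16 lower by 2-fold or more, and the median over all genes tested was -0.042 (log2). The count of calls was 1079 without the first medium array, 876 without the second, 1216 without the first supernatant array and 789 without the second. In the same order, calls of 2-fold or more were 34 higher and 30 lower, 19 and 29, 24 and 36, and 24 and 27.

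The largest rise was in MMP1, the interstitial collagenase. Its log2 signal was 6.80 and 7.21 with supernatant, against 4.95 and 4.93 in 8 h medium, so the groups lay well apart. This is a rise of 4.19-fold (log2 change 2.07 ± 0.20 SE, limma adjusted p = 1.90e-06). LRRC15, a leucine-rich repeat membrane protein known from TGF-beta responsive stroma and tumours, read 7.30 and 7.34 with supernatant, against 6.04 and 5.39 in 8 h medium. It rose 3.04-fold (limma adjusted p = 1.10e-05). ITGA2, the alpha 2 subunit of a collagen-binding integrin, rose by 0.73 (log2) at an adjusted p of 1.06e-05 by limma. In the list of TGF-beta, BMP and matrix genes 7 of 34 tested members were higher and 4 lower, or 20.6% and 11.8%, against 5.98% and 9.2% of all genes. With any single array of the 4 left out, 5 to 6 were higher and 1 to 2 lower. The list's median change was 0.0025, against -0.042 over all genes. The BMP target ID1, an inhibitor of differentiation factors, was among the lower ones and fell by 0.36. The promoter of LRRC15 is shown because it is the largest riser of this list with an entry in the promoter table used here. It is printed 5' to 3' on the minus strand, chr3:194369744-194369993 in GRCh38.p14, the 250 bases before the RefSeq start, with capitals marking the single match to the AP-1 letters TGAGTCA, read on either strand.
LRRC15: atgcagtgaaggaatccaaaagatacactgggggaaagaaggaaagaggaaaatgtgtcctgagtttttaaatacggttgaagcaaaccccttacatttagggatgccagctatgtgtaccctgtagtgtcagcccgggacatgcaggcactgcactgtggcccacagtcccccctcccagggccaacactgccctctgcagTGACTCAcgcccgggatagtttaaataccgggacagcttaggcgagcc
The match lies 48 to 42 bases before the start, and 4.2% of 35116 promoter windows of this length hold such a match. It is a description of letters and not a measured site.

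C6orf141, of unknown function, averaged 7.94 ± 0.0044 with supernatant and 6.27 ± 0.38 in 8 h medium (SD, n = 2 each) and was the second in size among the rises (log2 change 1.67 ± 0.20 SE). ARL14, a small GTPase, read 7.53 and 7.52 with supernatant, against 6.76 and 5.45 in 8 h medium, with 1 medium array far below the other, and KRCC1, a coiled-coil protein, 7.83 and 7.94 with supernatant, against 6.84 and 6.79 in 8 h medium. GK5, a glycerol kinase family member, rose by 1.03, but its other 2 probe sets gave -0.057 and 0.51, neither past the test (limma adjusted p = 0.868 and 0.0596).

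**Figure D1:**
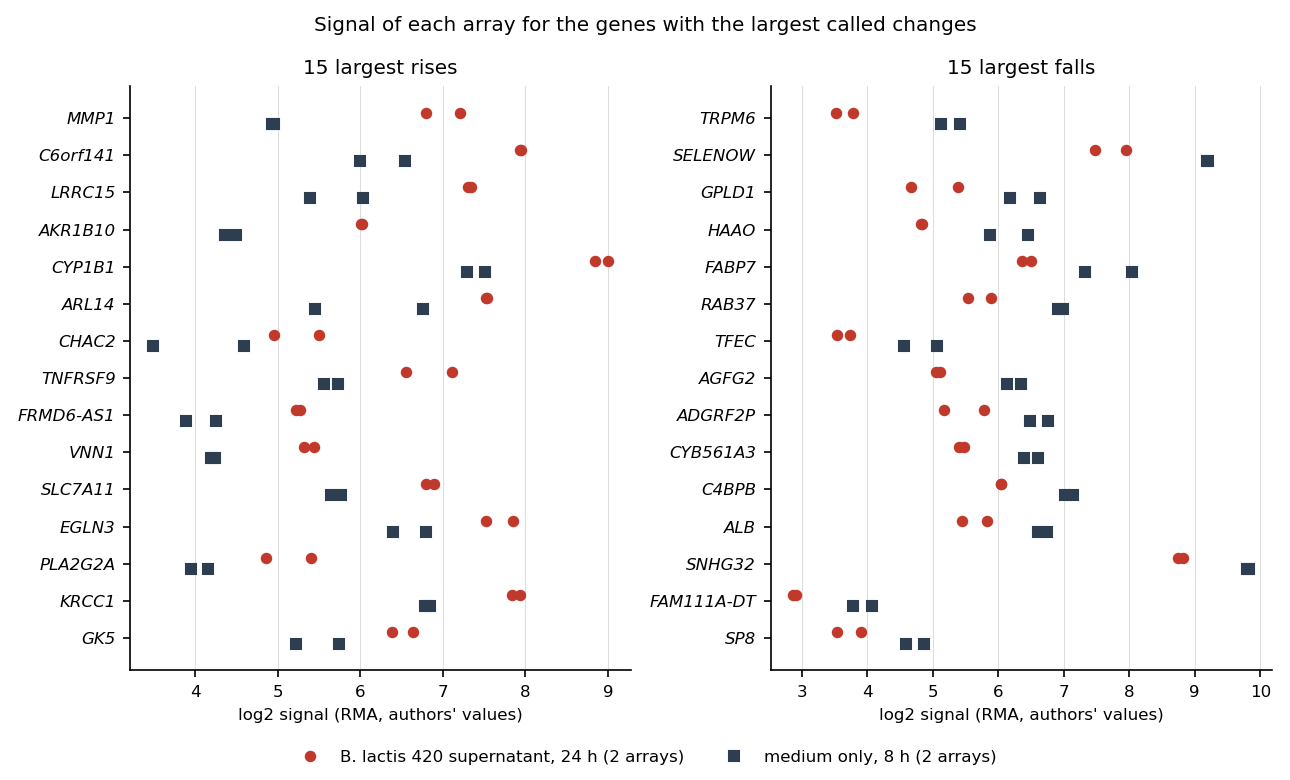
Log2 signal in each of the 2 arrays of B. lactis 420 supernatant at 24 h (circles) and of medium alone at 8 h (squares), for the 15 called genes that rose most (left) and the 15 that fell most (right). For every gene shown both supernatant arrays lie on 1 side of both medium arrays, as the choice of genes required, and medium arrays of ARL14 and CHAC2 lie far from each other.

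Of 30 tested immediate early and AP-1 genes 9 were higher and 2 lower with supernatant, or 30% and 6.67%, against 5.98% and 9.2% of all genes. With any single array left out 5 to 6 were higher, the 5 without the first medium array, and 0 to 1 lower. The median change of the list was 0.21. JUN, the AP-1 subunit, read 7.65 and 7.57 with supernatant, against 6.85 and 6.67 in 8 h medium, clear of overlap, and rose by 0.85 ± 0.14 SE on the log2 scale, or 1.81-fold, with limma adjusted p = 3.69e-04. Of its other 3 probe sets 1, of the _x_at kind that can cross-hybridise, passed at 0.53 (limma adjusted p = 0.00194), and the others gave 0.41 and 0.35 and did not pass (limma adjusted p = 0.13 and 0.249). KLF4, a transcription factor of differentiated epithelium, rose by 0.66 and TRIB1, a pseudokinase, by 0.60, with limma adjusted p = 6.30e-05 and 4.20e-06. FOS, the partner of JUN, read 7.33 and 7.21 with supernatant, against 6.85 and 7.07 in 8 h medium, which did not pass the test (limma adjusted p = 0.146). Of 15 tested MAP kinase phosphatases and feedback inhibitors 2 were higher (13.3%) and 0 lower. They were DUSP1, which rose by 0.63, and DUSP6, which rose by 0.37. Both switch MAP kinases off by dephosphorylation. Each was called on its main probe set only. The other 2 of DUSP1 gave 0.41 and 0.10 (limma adjusted p = 0.238 and 0.785). The other 2 of DUSP6 gave 0.15 and -0.057 (limma adjusted p = 0.281 and 0.875). Among 8 tested genes of the EGF receptor system 3 were higher and 3 lower, 37.5% each way, and 1 and 2 without the variance trend in the limma fit. The ligands EREG and EGF rose by 0.47 and 0.70, while the receptors ERBB2 and ERBB3 fell by 0.63 and 0.29. With single arrays left out, 1 to 3 of these 8 were higher and 0 to 2 lower, with 1 higher without the first medium array or either supernatant array.

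Of the aryl hydrocarbon receptor list CYP1B1 was among the largest rises, and of the NRF2 targets AKR1B10 was. CYP1B1, a cytochrome P450 that this receptor induces, read 8.84 and 9.01 with supernatant, against 7.51 and 7.29 in 8 h medium, a gap wider than the spread within either group, and rose by 1.52 ± 0.12 SE on the log2 scale, or 2.88-fold, with limma adjusted p = 1.60e-07. Its other 2 probe sets rose by 0.78 and 1.26 (limma adjusted p = 0.00881 and 3.90e-06). CYP1A1, the classical target, read 12.34 and 12.27 with supernatant, against 12.20 and 12.14 in 8 h medium, high in all 4 arrays, and its difference of 0.14 missed the threshold (limma adjusted p = 0.0897). TIPARP, a further target that feeds back on the receptor, rose by 0.49, the receptor gene AHR by 0.27 and NFE2L2, which encodes NRF2, by 0.33. In the list of this receptor's axis 5 of 12 tested members were higher (41.7%, against 5.98% of all genes) and 0 lower. The count fell to 1 without the variance trend, and was 2 without the second medium or the second supernatant array, 3 without the first medium array and 4 without the first supernatant array.

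AKR1B10, an aldo-keto reductase that NRF2 induces in human cells, read 6.03 and 6.01 with supernatant, against 4.49 and 4.37 in 8 h medium, with a spread within groups far under the gap between them, and rose by 1.59 ± 0.17 SE on the log2 scale, or 3.01-fold, with limma adjusted p = 6.11e-06. SLC7A11, the cystine importer that feeds glutathione synthesis, read 6.80 and 6.90 with supernatant, against 5.76 and 5.64 in 8 h medium and rose 2.21-fold. GCLM, the modifier subunit of the enzyme that limits glutathione synthesis, read 8.21 and 8.33 with supernatant, against 7.40 and 7.26 in 8 h medium and rose 1.92-fold, at limma adjusted p = 1.10e-05. CHAC2, an enzyme that degrades glutathione, read 4.95 and 5.51 with supernatant, against 3.49 and 4.59 in 8 h medium, with the medium arrays more than 1 log2 unit apart. It rose 2.28-fold (limma adjusted p = 0.00472). Of 27 tested NRF2 targets 10 were higher and 4 lower (37% and 14.8%, against 5.98% and 9.2% of all genes), with 6 higher when either medium array was left out and 5 without the variance trend, and their median change was 0.15. NQO1, a quinone reductase often read for NRF2, rose by 0.18. The lower members included 3 pentose phosphate enzymes, TALDO1, TKT and PGD, chosen after their values were seen, which fell by 0.32, 0.37 and 0.36. The promoter of GCLM is shown as the largest riser among NRF2 targets with an entry in the promoter table. It lies on the minus strand at chr1:93909431-93909680 in GRCh38.p14, printed 5' to 3', and capitals mark the single match, on either strand, to the core of the antioxidant response element, TGACNNNGC, with N for any base.
GCLM: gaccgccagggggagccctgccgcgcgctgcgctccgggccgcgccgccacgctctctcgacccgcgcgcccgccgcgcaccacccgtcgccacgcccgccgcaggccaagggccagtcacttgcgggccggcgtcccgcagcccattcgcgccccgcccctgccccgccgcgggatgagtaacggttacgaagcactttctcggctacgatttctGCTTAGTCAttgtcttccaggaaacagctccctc
The match covers 34 to 26 bases before the start, and 10.9% of all promoter windows hold one.

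In the list of conjugating and P450 genes 4 of 19 tested members were higher (21.1%, against 5.98% of all genes) and 0 lower, and 2 higher without the second supernatant array. The microsomal glutathione transferase MGST1 rose by 0.61 and CYP3A5 by 0.47. VNN1, a pantetheinase that frees pantothenate and cysteamine, read 5.44 and 5.31 with supernatant, against 4.24 and 4.20 in 8 h medium and rose 2.23-fold, while its other probe set gave 0.083 (limma adjusted p = 0.839). Of 26 tested targets of the integrated stress response, in which ATF4 raises amino acid supply, 5 were higher and 1 lower (19.2% and 3.85%). PSAT1, a serine synthesis enzyme, rose by 0.89, whereas PHGDH, which catalyses the step before it, fell by 0.87 (limma adjusted p = 1.38e-04 and 5.24e-04). Of 21 tested amino acid transporters 1 was higher, SLC7A11, and 4 were lower (19%, against 9.2% of all genes), 2 without the second supernatant array, among them SLC7A7, a subunit of the basolateral exporter of cationic amino acids, which fell by 0.42 (limma adjusted p = 1.06e-05).

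A larger share of hypoxia and glycolysis genes than of all genes was called higher. Of 39 tested members 13 were higher and 3 lower, or 33.3% and 7.69%, against 5.98% and 9.2% of all genes, and 8 to 13 and 1 to 3 with single arrays left out. The 8 came without the first medium array, and the 1 lower without the first supernatant array. EGLN3, an oxygen-sensing prolyl hydroxylase that HIF induces, read 7.52 and 7.85 with supernatant, against 6.40 and 6.79 in 8 h medium. It rose by 1.09 ± 0.16 SE on the log2 scale, or 2.13-fold, with limma adjusted p = 1.68e-04. ERO1A, an oxidase of protein folding in the endoplasmic reticulum, rose by 0.53, DDIT4, an inhibitor of mTORC1, by 0.54 and the glycolytic enzyme PGK1 by 0.24, all at limma adjusted p = 3.91e-04 or less. The median change of the list was 0.091. VEGFA, the angiogenic growth factor that HIF induces, went the other way and fell by 0.28, as did the glycolytic enzyme PFKM by 0.30 and the MYC antagonist MXI1 by 0.37, these 3 chosen after their values were seen. The promoter of ERO1A is shown because this gene had the lowest adjusted p of the list, though EGLN3 rose more. It is on the minus strand at chr14:52695559-52695808 in GRCh38.p14, with capitals for the single match, on either strand, to the core of the hypoxia response element, ACGTG.
ERO1A: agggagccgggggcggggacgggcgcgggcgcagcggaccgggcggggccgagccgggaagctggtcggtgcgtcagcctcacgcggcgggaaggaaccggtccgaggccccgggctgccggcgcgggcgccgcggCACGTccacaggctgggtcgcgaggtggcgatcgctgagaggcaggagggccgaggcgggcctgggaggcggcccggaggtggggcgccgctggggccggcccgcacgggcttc
This match lies 114 to 110 bases before the start. The core is short, and 18.5% of promoter windows hold it.

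The largest fall was in TRPM6, a magnesium channel of the apical membrane. Its log2 signal was 3.78 and 3.52 with supernatant, against 5.42 and 5.13 in 8 h medium, a fall of 3.08-fold (log2 change -1.62 ± 0.19 SE, limma adjusted p = 1.48e-05). Of its other 2 probe sets 1 fell as well, by 1.29 (limma adjusted p = 0.00287), and the other gave -0.125 (limma adjusted p = 0.725). SELENOW, a small selenoprotein, read 7.95 and 7.47 with supernatant, against 9.20 and 9.19 in 8 h medium. It fell 2.8-fold (limma adjusted p = 1.98e-07), and by 1.07 on the log2 scale on its other probe set (limma adjusted p = 2.56e-06). HAAO, an enzyme of the kynurenine pathway from tryptophan to NAD, read 4.82 and 4.84 with supernatant, against 5.88 and 6.45 in 8 h medium and fell 2.52-fold. GPLD1, a phospholipase that releases GPI-anchored proteins, fell 2.6-fold, and FABP7, a fatty acid binding protein, 2.38-fold. RAB37, a small GTPase of secretory vesicles, fell 2.35-fold and TFEC, a transcription factor of the MiT family, 2.26-fold, with limma adjusted p = 1.00e-04 and 6.23e-04. SNHG32, a host gene of small nucleolar RNAs, read 8.82 and 8.74 with supernatant, against 9.83 and 9.80 in 8 h medium, values that barely varied within groups, and fell 2.05-fold (limma adjusted p = 3.92e-07).

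Secreted plasma proteins, which Caco-2 cells make as fetal enterocytes and hepatocytes do, were called lower at a larger share than all genes. Of 22 tested members 9 were lower and 1 higher, or 40.9% and 4.55%, where 9.2% and 5.98% of all genes were. With single arrays left out 5 to 8 were lower and 1 higher, the 5 without the second supernatant array, and 5 were lower without the variance trend. The list's median change was -0.20. ALB, albumin, read 5.45 and 5.83 with supernatant, against 6.61 and 6.75 in 8 h medium and fell 2.05-fold (log2 change -1.04 ± 0.21 SE, limma adjusted p = 0.00224), while its other probe set gave -0.074 (limma adjusted p = 0.874). Transferrin, TF, the iron carrier of blood, read 4.56 and 4.56 with supernatant, against 5.55 and 5.41 in 8 h medium, and both supernatant arrays lay below both medium arrays (log2 change -0.92 ± 0.17 SE). AFP, alpha-fetoprotein, fell by 0.66 and transthyretin, TTR, by 0.25. The exception was TFPI, an inhibitor of tissue factor, which rose by 0.25. C4BPB, a chain of the complement regulator C4b-binding protein, read 6.05 and 6.04 with supernatant, against 7.02 and 7.14 in 8 h medium and fell 2.06-fold. In the list of iron, metallothionein, zinc and manganese genes TF was the single lower and TFRC, the transferrin receptor, the single higher member of 27 tested (log2 changes -0.92 and 0.37), so that no metallothionein was called.

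In the list of G1/S and DNA replication 9 of 45 tested members were lower and 2 higher with supernatant, or 20% and 4.44%, against 9.2% and 5.98% of all genes. They numbered 5 to 8 and 0 to 1 with single arrays left out, the 5 without the first medium array. In that of mitosis and G2/M 9 of 50 (18%) were lower and 0 higher, and again 5 to 8 and 0 with single arrays left out, the 5 without the second supernatant array. Their medians were -0.24 and -0.17. MCM3, a subunit of the replicative helicase, read 8.39 and 8.47 with supernatant, against 9.04 and 9.25 in 8 h medium, clear of overlap, and fell 1.63-fold (log2 change -0.71 ± 0.087 SE, limma adjusted p = 2.71e-05). CDK2, the kinase of S phase entry, fell 1.84-fold and TK1, thymidine kinase, 1.48-fold. Of mitotic genes NUSAP1, a spindle protein, fell by 0.47, TPX2, an activator of the aurora A kinase, by 0.55 and CENPF, a kinetochore protein, by 0.72, with limma adjusted p from 1.10e-04 for NUSAP1 to 0.00331 for CENPF. In a bulk sample fewer cycling cells and less RNA per cell cannot be told apart. The promoter of MCM3 is shown for the member with the lowest adjusted p of the replication list, on the minus strand at chr6:52284743-52284992 in GRCh38.p14, with capitals for the single match to the E2F letters TTTCCCGC, on either strand.
MCM3: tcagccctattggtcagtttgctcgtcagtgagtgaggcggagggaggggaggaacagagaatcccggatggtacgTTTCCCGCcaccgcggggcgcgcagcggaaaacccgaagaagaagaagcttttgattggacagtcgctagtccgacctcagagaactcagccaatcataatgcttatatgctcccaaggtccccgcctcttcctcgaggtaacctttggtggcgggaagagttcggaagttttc
This match covers 174 to 167 bases before the start, and 1.39% of promoter windows hold 1 or more.

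**Figure D2:**
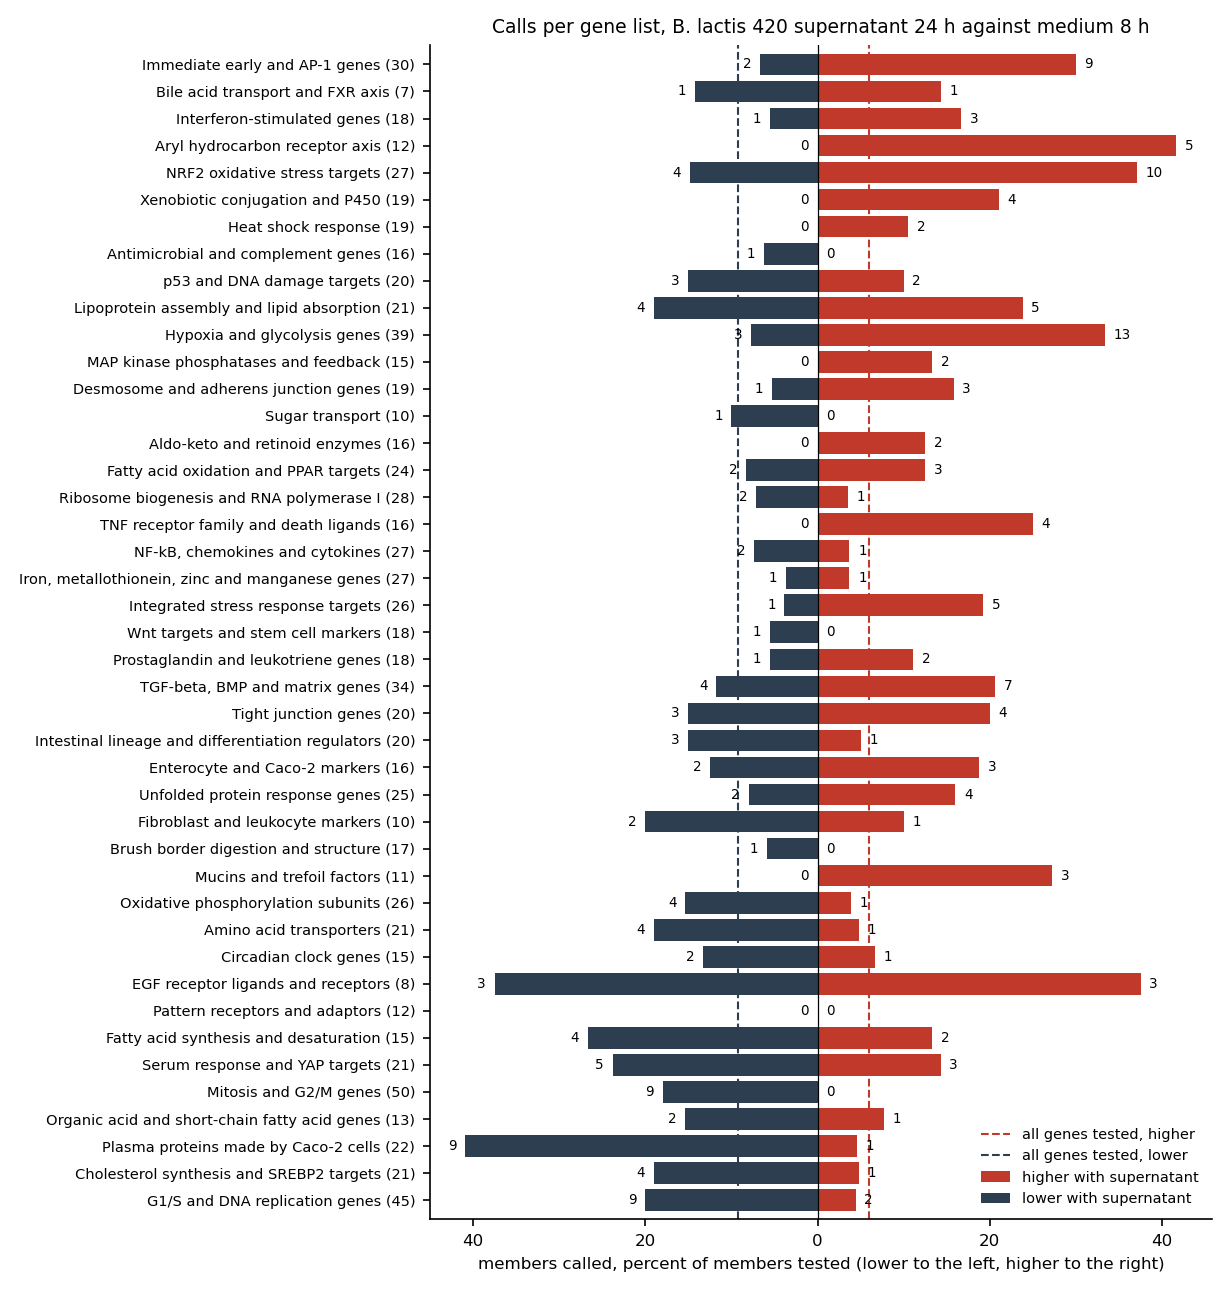
Percent of tested members called higher (right) and lower (left) with B. lactis 420 supernatant than in 8 h medium, for each of 43 gene lists, sorted by median change with the highest on top, where numbers at the bars count called members, those in brackets members tested, and dashed lines give the share of all 11865 genes called in each direction, 5.98% and 9.2%. Aryl hydrocarbon receptor, NRF2, hypoxia and early response lists extend furthest right of the first line and plasma proteins furthest left of the other, beside the small EGF receptor list, which extends both ways.

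Lipid genes held calls in both directions. Of 15 tested genes of fatty acid synthesis and desaturation 4 were lower and 2 higher (26.7% and 13.3%, against 9.2% and 5.98% of all genes), and 2 to 3 and 1 with single arrays left out, the 2 lower without the second medium or the first supernatant array. Without the variance trend 1 was lower and 1 higher. SREBF1, the master regulator of fatty acid synthesis, read 4.88 and 4.59 with supernatant, against 5.60 and 5.60 in 8 h medium. It fell 1.82-fold (limma adjusted p = 0.00224), with -0.061 on its other probe set (limma adjusted p = 0.885). FASN, fatty acid synthase, fell by 0.73, with -0.072 on its other probe set (limma adjusted p = 0.838). Of 21 tested cholesterol genes 4 were lower and 1 higher (19% and 4.76%), but 1 lower without the second medium array, the second supernatant array or the variance trend and 2 without the first supernatant array. LSS, lanosterol synthase, fell by 0.74, while INSIG1, which retains SREBP proteins in the endoplasmic reticulum, rose by 0.32. Neither passed on its other 2 probe sets. Those of LSS gave -0.297 and -0.545 (limma adjusted p = 0.323 and 0.149). Those of INSIG1 gave 0.044 and 0.124 (limma adjusted p = 0.831 and 0.234). Of 21 tested genes of lipoprotein assembly and lipid absorption 5 were higher and 4 lower (23.8% and 19%), 3 and 1 without the variance trend and 3 to 5 and 1 to 3 with single arrays left out, the lowest of both without the second supernatant array. Among the higher ones were APOA4, an apolipoprotein of chylomicrons, which read 12.81 and 12.81 with supernatant, against 12.11 and 12.11 in 8 h medium and rose by 0.69 (limma adjusted p = 3.92e-07), and APOB, their structural protein, which rose by 0.37. APOE fell by 0.25. ACSL5, an enzyme that activates long-chain fatty acids and stands in 2 of these lists, rose by 0.70, and PLIN2, which coats lipid droplets, by 0.43. The other probe set of PLIN2 gave 0.075 (limma adjusted p = 0.872). Of 7 tested bile acid genes 1 was higher and 1 lower, too few to set against the shares of all genes. They were SLC51A, one chain of the OST exporter of bile acids, which rose by 0.73, and FABP6, the ileal bile acid binding protein, which fell by 0.92.

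Of 20 tested tight junction genes 4 were higher and 3 lower (20% and 15%, against 5.98% and 9.2% of all genes), but 1 and 2 without the variance trend and 1 to 3 and 1 to 2 with any single array left out, with 1 of each without the second medium or second supernatant array. CLDN1, a sealing claudin, read 9.50 and 9.49 with supernatant, against 9.84 and 9.85 in 8 h medium, with almost no spread within groups, and fell by 0.35 (limma adjusted p = 0.00211), with -0.23 on another probe set (limma adjusted p = 0.54). PATJ, a scaffold of the Crumbs polarity complex, rose by 0.64 and CLDN12, another claudin, by 0.40. OCLN, occludin, read 11.52 and 11.57 with supernatant, against 11.56 and 11.55 in 8 h medium, and TJP1, the scaffold ZO-1, 11.38 and 11.36 with supernatant, against 11.20 and 11.34 in 8 h medium. Neither passed the test (limma adjusted p = 0.87 and 0.202), and the 95% intervals of their changes were -0.11 to 0.081 and -0.0074 to 0.20 (log2). Of 11 tested mucin and trefoil genes 3 were higher (27.3%) and 0 lower, also 3 higher with any single array left out. They were the trefoil peptide TFF1, which rose by 0.64, the transmembrane mucin MUC13, by 0.55, and AGR2, a disulfide isomerase needed for mucin folding, by 0.32. Keratin genes differed in direction, with KRT20, a keratin of mature enterocytes, up by 0.60 and KRT8 and KRT18, of simple epithelia, down by 0.28 and 0.27. Of 17 tested brush border genes 1, the alkaline phosphatase ALPG, was lower (5.88%, near the 9.2% of all genes) and 0 were higher.

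Of 27 tested NF-kB, chemokine and cytokine genes 1 was higher and 2 lower, or 3.7% and 7.41%, close to the 5.98% and 9.2% of all genes, with 3 higher without the first supernatant array and 0 lower without the first medium or second supernatant array. Of 12 tested pattern receptors and adaptors, 0 were called in limma, 1 had an unadjusted p under 0.05, and 0 were called in each fit that left out 1 array. The higher one was the cytokine IL32, by 0.57, and NFKBIA, the inhibitor of NF-kB, fell by 0.36. CCL20, a chemokine of epithelium for dendritic cells and lymphocytes, read 9.62 and 9.53 with supernatant, against 9.53 and 9.52 in 8 h medium, values that overlapped (limma adjusted p = 0.741). The neutrophil chemokine CXCL8 read 2.69 and 2.97 with supernatant, against 1.75 and 2.75 in 8 h medium, around the floor (limma adjusted p = 0.121). Without the second medium array its log2 change was 1.08. Its other probe set, of the _x_at kind that can cross-hybridise, gave 1.21 (limma adjusted p = 5.37e-04). TNFAIP3, whose product A20 restrains NF-kB, read 6.86 and 6.89 with supernatant, against 6.67 and 6.46 in 8 h medium (limma adjusted p = 0.112). Of 16 tested members of the TNF receptor family 4 were higher (25%, against 5.98% of all genes) and 0 lower, 2 to 4 and 0 with single arrays left out, the 2 without the first medium or second supernatant array. TNFRSF9, known as 4-1BB of activated lymphocytes, read 7.11 and 6.55 with supernatant, against 5.56 and 5.74 in 8 h medium and rose 2.27-fold (limma adjusted p = 6.69e-05). Of its other 2 probe sets 1 rose by 0.58 (limma adjusted p = 0.0368) and the other gave 0.24 (limma adjusted p = 0.434). TNFRSF11B, the decoy receptor osteoprotegerin, rose by 0.97 on its main probe set and gave 0.14 on another (limma adjusted p = 0.599). In the prostaglandin and leukotriene list 2 of 18 tested members were higher and 1 lower (11.1% and 5.56%), and 1 and 0 with any single array left out. PLA2G2A, a secreted phospholipase with antibacterial activity, read 5.40 and 4.86 with supernatant, against 4.16 and 3.95 in 8 h medium and rose 2.11-fold (limma adjusted p = 0.00126). The cyclooxygenases PTGS1 (3.63 and 3.23 with supernatant, against 3.73 and 3.46 in 8 h medium) and PTGS2 (7.92 and 8.02 with supernatant, against 7.83 and 7.69 in 8 h medium) did not pass the test (limma adjusted p = 0.577 and 0.162). With live B. lactis 420 cells for 8 h, for comparison as values only, CCL20 averaged 12.29 ± 0.081, TNFAIP3 9.34 ± 0.21 and TNFRSF9 8.46 ± 0.11 (log2, SD, n = 2).

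The supernatants of NCFM and Ls-33 share the time, broth type, volume share, array set and RNA input of the B. lactis 420 supernatant, so comparing them asks whether a level depended on the strain. No gene passed the limma test against the mean of the other 2 supernatants (0 of 11865, 0%), with 896 genes at an unadjusted p under 0.05 and 3 called without the first B. lactis 420 array. The 95% interval of the difference lay within 2-fold in both directions for 99.8% of genes, and its median half-width was 0.28 (log2), or 1.21-fold. MMP1 averaged 7.01 ± 0.29 with B. lactis 420 supernatant, 7.34 ± 0.042 with that of NCFM and 7.29 ± 0.016 with that of Ls-33 (log2, SD, n = 2 each), and the interval of its difference from the mean of the other 2 was -0.67 to 0.055. For CYP1B1 the averages were 8.92 ± 0.11, 8.71 ± 0.18 and 8.93 ± 0.15 in the same order, with an interval of -0.10 to 0.31, and for LRRC15 the interval was -0.36 to 0.29. TRPM6, the largest fall, had an interval of -0.72 to -0.037, which leaves out 0, but it did not pass after adjustment (limma adjusted p = 0.585). The differences of these genes from 8 h medium were therefore not shown to be particular to B. lactis 420. Since the 3 supernatants were set against the same 2 medium arrays, agreement among their changes from medium is not used here.

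Single strains differed from B. lactis 420 supernatant in few genes. Against NCFM supernatant limma called 3 genes, 0.0253% of those tested, with 1 higher (0.00843%) and 2 lower (0.0169%), and against Ls-33 supernatant 2 (0.0169%, both lower). CCL20 was in both sets. It averaged 9.57 ± 0.065 with B. lactis 420 supernatant, 9.11 ± 0.10 with that of NCFM and 10.04 ± 0.072 with that of Ls-33 (log2, SD, n = 2 each), so that B. lactis 420 lay between the others, by 0.46 ± 0.074 SE above NCFM (limma adjusted p = 0.0304) and 0.47 ± 0.074 SE below Ls-33 (limma adjusted p = 0.0256). SELENOW was lower with B. lactis 420 than with NCFM supernatant, by 0.67 (limma adjusted p = 0.0479), while its other probe set gave -0.32 (limma adjusted p = 0.617). The other 2 genes, chosen after their values were seen, were CRIM1, a membrane protein that binds BMPs, lower than with NCFM supernatant by 0.43 (limma adjusted p = 0.0138) but 0.107 and 0.136 higher on its other 2 probe sets (neither passing, limma adjusted p = 0.896 and 0.905), and SUMF2, of the sulfatase-modifying factor family, lower than with Ls-33 supernatant by 1.04 (limma adjusted p = 0.0214). Calls against each strain numbered 0 when the second B. lactis 420 array was left out, those against NCFM also without either NCFM array and those against Ls-33 also without the first Ls-33 array, and rose to 6 against Ls-33 without the first B. lactis 420 array.

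**Figure D3:**
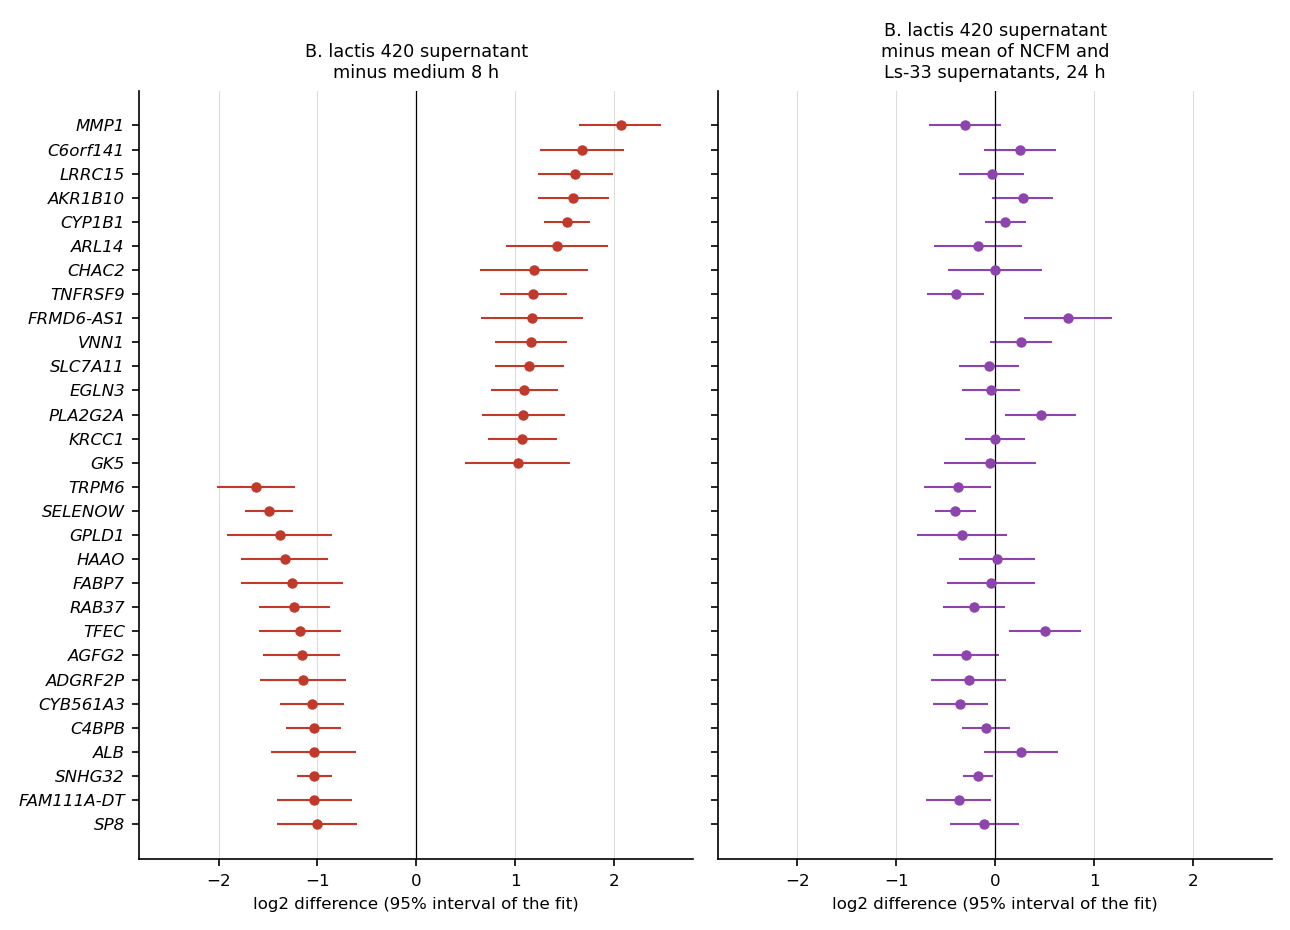
Log2 difference of B. lactis 420 supernatant from 8 h medium (left) and from the mean of NCFM and Ls-33 supernatants (right), with the 95% interval of the limma fit, for the 15 largest rises and 15 largest falls, chosen on the left values. On the right all points lie between -0.40 and 0.74, and none passed the adjusted threshold.

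The 24 h medium arrays share the treatment time of the supernatant but belong to the set labelled from 1 µg of RNA, so array set, RNA input and treatment cannot be told apart there. limma called 6564 genes between them, 55.3% of those tested, with 3087 higher (26%) and 3477 lower (29.3%). Values are therefore given side by side, and passing or not passing the test in this contrast does not bear on treatment alone. LRRC15, CYP1B1 and AKR1B10 were higher than in 24 h medium too, by 1.77, 1.47 and 2.41 (log2), beside 1.61, 1.52 and 1.59 against 8 h medium. EGLN3 was higher by 1.92 and TNFRSF9 by 3.03. SELENOW was lower than in 24 h medium by 1.81 and SNHG32 by 1.71. For other genes the 24 h medium lay near the supernatant. MMP1 averaged 7.01 ± 0.29 with supernatant (SD, n = 2), 6.80 ± 0.095 in 24 h medium (SD, n = 3) and 4.94 ± 0.017 in 8 h medium (SD, n = 2), and its difference from 24 h medium, 0.21, did not pass the test (limma adjusted p = 0.314). TRPM6 averaged 3.65 ± 0.19, 3.70 ± 0.40 and 5.28 ± 0.21 in the same order, with a difference of -0.043 from 24 h medium (limma adjusted p = 0.862). SLC7A11 averaged 6.85 ± 0.072, 7.07 ± 0.059 and 5.71 ± 0.085. VNN1 and PLA2G2A were higher than in 8 h medium and lower than in 24 h medium, in the second contrast by 0.85 and 1.12. ALB averaged 5.64 ± 0.27 with supernatant, 10.67 ± 0.081 in 24 h medium and 6.68 ± 0.10 in 8 h medium. The actin 3' to 5' difference was 1.90 to 2.17 in 24 h medium, against 1.06 and 1.10 with supernatant, and its part in this contrast was not tested.

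**Figure D4:**
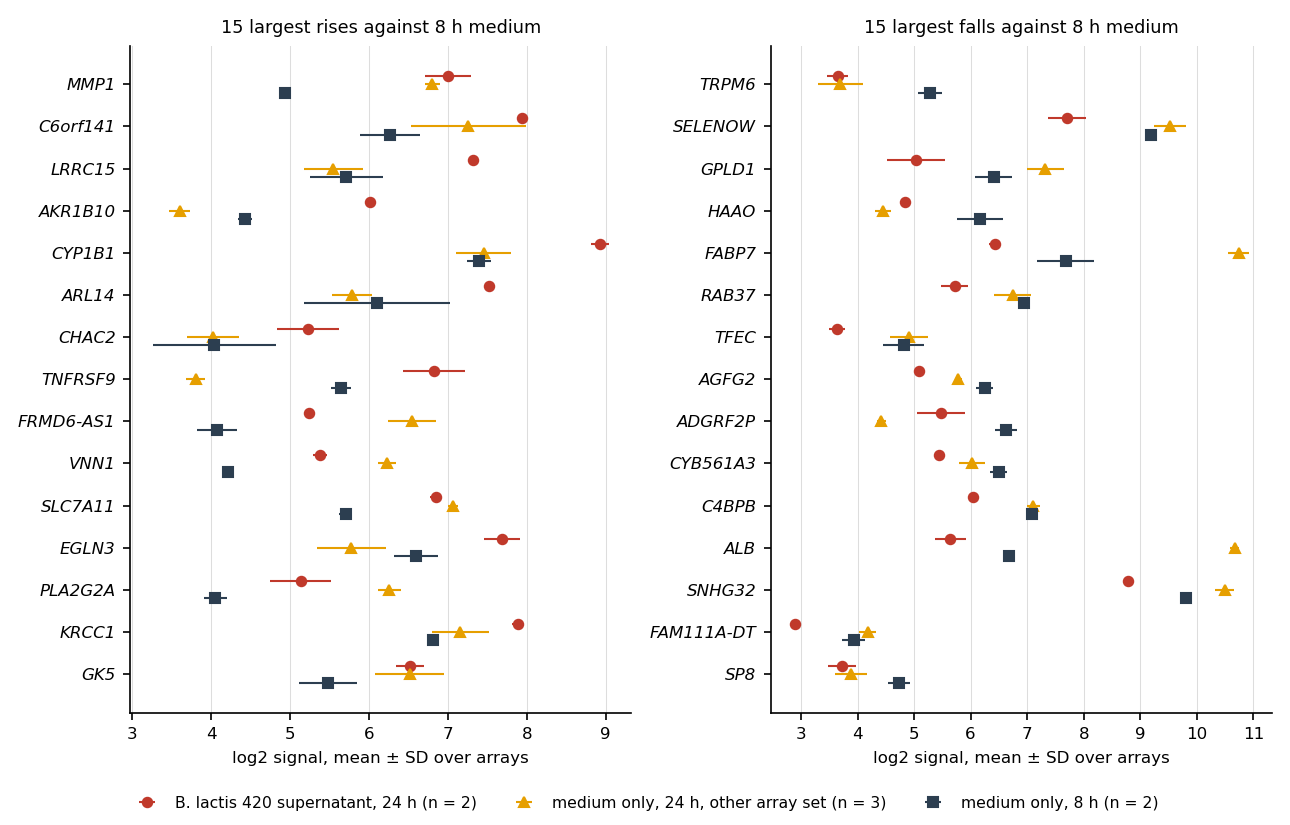
Mean log2 signal ± SD for the 15 largest rises (left) and falls (right) against 8 h medium, with B. lactis 420 supernatant at 24 h as circles (n = 2), medium alone at 24 h from the other array set as triangles (n = 3) and medium alone at 8 h as squares (n = 2). The 24 h medium lies beside the supernatant for MMP1, GK5, TRPM6 and SP8, and beside or beyond 8 h medium for LRRC15, CYP1B1, AKR1B10, EGLN3 and SELENOW.

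Counts against 8 h medium for further lists follow. Of 21 tested serum response and YAP targets 3 were higher and 5 lower (14.3% and 23.8%, against 5.98% and 9.2% of all genes), 0 to 2 and 2 to 4 with single arrays left out. Of 15 tested circadian clock genes 1 was higher and 2 lower (6.67% and 13.3%), but 0 higher without the first array of either group and 0 lower without the second array of either. Among them the clock output factor DBP fell by 0.60 and NFIL3, a repressor of the same sites, by 0.38. Of 19 tested heat shock genes 2 were higher and 0 lower, of 25 unfolded protein response genes 4 and 2, of 26 oxidative phosphorylation subunits 1 and 4, and of 28 ribosome biogenesis genes 1 and 2. As shares these were 10.5% and 0% for heat shock, 16% and 8% for the unfolded protein response, 3.85% and 15.4% for oxidative phosphorylation, and 3.57% and 7.14% for ribosome biogenesis, the last near those of all genes. With single arrays left out the higher and lower counts were 0 to 1 and 0 for heat shock genes, 0 to 3 and 0 to 1 for the unfolded protein response, 0 to 1 and 1 to 3 for oxidative phosphorylation and 0 to 1 and 0 to 1 for ribosome biogenesis. Interferon-stimulated genes had 3 of 18 higher and 1 lower (16.7% and 5.56%), but 0 higher without the first supernatant array and 1 without the second medium array, with the antiviral GTPase MX1 lower by 0.84. Of 13 tested genes for organic acid transport and short-chain fatty acid sensing 1 was higher (7.69%), the monocarboxylate carrier family member SLC16A4, by 0.72, and 2 were lower (15.4%, and 1 without the second supernatant array), among them BSG, the chaperone of monocarboxylate carriers, by 0.35.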

How the data were processed

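Gene expression was measured on 20 Affymetrix arrays, 1 per sample, and the deposited values were log2 signals of 54675 probe sets, which per the submitters' processing notes the authors summarised by RMA. No source used here states the RMA version or whether both array sets were normalised jointly. Signal on an array has no read depth, and the number of arrays limits the precision. Probe sets with 1 gene symbol (41091) gave 19775 genes, each represented by its brightest probe set on average across all 20 arrays, with cross-hybridising (_x_at) sets used only where a gene had no other. Genes under the 40th percentile of the mean (log2 2.74) were left out, which kept 11865. limma 3.58.1 in R 4.3.3 (lmFit and eBayes with a trend, Benjamini-Hochberg adjustment over all genes tested) was fitted on the 14 probiotic-set arrays, and on all 20 for the contrast with 24 h medium. Genes were called at an adjusted p under 0.05. Intervals are 95% intervals of the fit. Named genes were the 15 largest rises and falls among called genes whose groups did not overlap and whose higher group mean reached the floor. Up to 4 called members per list, taken by lowest adjusted p, and a short preset list were added. The genes, lists and tests were chosen with earlier results of these data known. Some lists share members, so their counts are not independent of each other. On a single data set simulated from these arrays the fit against 8 h medium recovered 57.4%, 91.4% and 100% of genes changed by 1.5, 2 and 4-fold. There 200 of 11865 genes were changed and 5.62% of calls were false. The real data gave 1802 calls, so recovery there may differ. Alternatives were another filter, no trend, quantile normalisation, other sets of arrays, a replicate block, every probe set on its own and leaving out each array. Promoter sequences came from RefSeq (GRCh38.p14), and 7 motifs were searched in 35116 windows. The rule for the gene shown differed between lists, either the largest rise or the lowest adjusted p. Only a window that held a match could be printed, so the presence of a match there is not a result.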

Additional observations from a re-analysis of the deposited data

Results flagged for a closer look

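5 differences between B. lactis 420 supernatant and 1 of the other strains' supernatants passed a test of the difference itself, in the same medium, time and array set. CCL20 was 0.46 (log2) higher with B. lactis 420 than with L. acidophilus NCFM supernatant and changed by -0.47 against L. salivarius Ls-33 supernatant. SELENOW differed by -0.67 from NCFM supernatant, while its other probe set gave -0.318 (limma adjusted p = 0.617). CRIM1 differed by -0.43 from NCFM supernatant, while its other 2 probe sets gave 0.107 and 0.136. SUMF2 differed by -1.04 from Ls-33 supernatant. Against Ls-33 supernatant SELENOW gave -0.135 and CRIM1 -0.223, neither passing (limma adjusted p = 0.856 and 0.311). Against NCFM supernatant SUMF2 gave -0.153 (limma adjusted p = 0.9). SUMF2 read 9.72 and 9.27 on the 2 B. lactis 420 supernatant arrays. No array was tested for standing apart, since groups of 2 and 3 are too small for that.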

How the results depend on the processing

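Against 8 h medium, 1802 calls became 1121 without the variance trend, 789 to 1216 with 1 array left out, and 1746 with the replicate block. Quantile normalisation gave 1697, of which 47.1% were higher against 39.4% in the reported fit. The same replicate numbers did not pair the samples: over 21 pairs of groups their deviations correlated at -0.104 to 0.057. Against the mean of the other 2 supernatants, 0 calls became 2 with the filter at the 60th percentile, 1 under quantile normalisation, 1 with only the groups compared, 1 with the replicate block and 0 to 3 with 1 array left out. Against NCFM supernatant, 3 calls became 0 without the trend, 1 with only the groups compared, 0 with all 20 arrays, 1 with the replicate block and 0 to 3 with 1 array left out. Against Ls-33 supernatant, 2 calls became 0 without the trend, 1 with only the groups compared, 2 with the replicate block, 0 with every probe set on its own and 0 to 6 with 1 array left out. Against 24 h medium, 6564 calls became 13004 with every probe set on its own and 5332 to 6503 with 1 array left out. The cause of these changes was not tested, apart from the fewer arrays or other probe sets that an alternative itself brings. Some named genes turned direction on another probe set, none past the threshold there: CENPF 0.105, CRIM1 0.149 and 0.148 (0.107 and 0.136 against NCFM supernatant), CYP3A5 -0.367, DBP 0.0992, DUSP6 -0.0571, EPB41L4A-AS1 0.169, ERBB3 0.181, GK5 -0.0571, NFE2L2 -0.129, PATJ -0.168, PGK1 -0.267 and -0.0384, SELENOH 0.0684 and 0.0194, TFRC -0.12 and TKT 0.0667. Others, among them KLF4, TRIB1, ITGA2, PSAT1, NUSAP1, TK1 and APOB, kept their direction on another probe set but did not pass there. Where 2 or more probe sets of a gene were called against 8 h medium, 24 of 283 genes had probe sets of opposite direction. With 2 arrays a group, the median 95% half-width of a change was 0.32 (log2).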

Other observations

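The lists in this paragraph were drawn up after values had been seen, so they carry no test of the list. Of 20 tested selenoprotein genes 4 were lower and 3 higher with B. lactis 420 supernatant than in 8 h medium, where 9.2% of all genes were lower and 5.98% higher. SELENOW and SELENOH, small thioredoxin-like selenoproteins, fell by 1.49 and 0.64, and the glutathione peroxidase GPX1 by 0.28. The thioredoxin reductase TXNRD1 and the gastrointestinal peroxidase GPX2 rose by 0.22 and 0.17. Of 7 tested host genes of small nucleolar RNAs 4 were lower and 0 higher, beside the same shares of all genes, with a median change of -0.69. ZFAS1 fell by 0.89, SNHG32 by 1.03 and EPB41L4A-AS1 by 0.96. The fourth, SNHG19, read 4.56 and 4.11 with supernatant, against 5.08 and 4.97 in 8 h medium, and only just passed (limma adjusted p = 0.0498).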
